A study of Mus musculus with 7 samples.

Results

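Heat shock chaperones and genes of the unfolded protein response (UPR) were followed in haematopoietic stem cells (HSCs) of old and young mice. The set was chosen by gene symbol: all rows of the count table named as HSP70, HSP90, HSP110, HSP40 (J protein) or small heat shock genes, the heat shock factors Hsf1 and Hsf2, the subunits of the TRiC chaperonin, the mitochondrial chaperonins Hspd1 and Hspe1, protein disulfide isomerases Pdia3 to Pdia6, and 14 named genes, nearly all of the endoplasmic reticulum (ER). It held 101 of the 24015 genes in the table. By the known site of the protein, 43 members were placed in the cytosol or nucleus, 30 in the ER, 8 in mitochondria and 20 at other or unplaced sites. Enough counts for a test were found for 83 members (31 cytosolic, 29 ER, 8 mitochondrial and 15 other). Of the 18 not tested, 8 had no count in any library, namely Hspa1a, Hspb3, Hspb7, Cct8l1, Dnajb8, Dnajb13, Dnajc22 and Dnajc5g, and 10 had counts in too few libraries (at most 3 of the 7).

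The cells were LSK CD150+ CD48- bone marrow cells of C57BL/6 mice, an immunophenotype that enriches for HSCs, and were labelled as old (3 libraries) or young (4 libraries). Polyadenylated RNA was sequenced in bulk, and old HSCs were compared with young HSCs. No treatment or engineered allele is stated for either group. The labels do not give the ages, nor say whether a library came from 1 mouse, from pooled mice or from separate mice, so p-values speak only of the variation among these 7 libraries, which may be technical in part.

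Heat shock proteins bind unfolded proteins and help them fold, and HSF1 turns on their genes when unfolded proteins build up in the cytosol. In the ER, the sensors IRE1, ATF6 and PERK answer unfolded protein by raising ER chaperones and the machinery that sends failed proteins to the proteasome (ER-associated degradation, ERAD). HSCs make protein at a low rate and depend on this quality control. IRE1 acts by splicing Xbp1 mRNA, ATF6 by being cut, and HSF1 by being modified and moved. Counts per gene show none of these steps, only the amount of each mRNA.

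The old libraries held 27369677 to 32401925 counts and the young libraries 22203806 to 27146186, and 3 counts corresponded to 0.0929 to 0.115 CPM (counts scaled to a common library size, with TMM factors) in old and 0.104 to 0.137 CPM in young. On the first principal component of log2 CPM, which held 27.7% of the variance, Young 1 lay far from the rest, and Young 2 did so on the second (22.2%). Of 8 HSC marker genes all were detected, and their summed level was 2840.5 to 3087 CPM in the old libraries against 1274 to 2319.9 CPM in young. Procr, an HSC surface marker, averaged 332 ± 47.9 CPM in old libraries and 49.7 ± 11.7 CPM in young ones (SD, n = 3 and 4). Cd48, which the sort excluded, was at 0 in all old libraries and at 1.87 to 24.5 CPM in young. Macrophage markers summed to 0 to 4.46 CPM in old and 5.82 to 37.7 CPM in young, and erythroid markers to 0 to 24.9 CPM in old and 15.6 to 54 CPM in young. Sums of T and natural killer cell markers overlapped (old 214 to 273 CPM, young 65.4 to 382 CPM). Among them Klrb1c stood higher in every old library (old 109 to 238 CPM, young 0 to 12.2 CPM). Nkg7 had a lower mean in old, with overlap (old 21.3 to 105 CPM, young 65.4 to 382 CPM). B cell markers (old 73.4 to 192 CPM, young 122 to 185 CPM) and megakaryocyte markers (old 136 to 346 CPM, young 240.1 to 533 CPM) also overlapped. In bulk RNA, fewer cells of a type and less RNA per cell cannot be told apart.

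No chaperone or UPR gene passed the test between old and young HSCs. With the quasi-likelihood test of edgeR and Benjamini-Hochberg adjustment over 11506 genes, 29 genes passed an adjusted p of 0.05 (0.252%), of which 27 were higher in old (0.235%) and 2 lower (0.0174%), and 0 of the 83 tested members were among them. At an unadjusted p under 0.05, 4 members were higher in old and 2 lower, 7.23% of those tested, where 9.12% of all tested genes were below that p (4.62% higher in old and 4.49% lower). By DESeq2, which called 431 genes (3.75%, with 1.87% higher in old and 1.88% lower), 5 members passed: Hspb6, Dnajb9 and Xbp1 higher in old, and Cct5 and Dnajc9 lower. By limma-voom, which called 50 genes (0.435%, with 0.426% higher in old and 0.00869% lower), Hspb6 passed. These 5 genes and Hsp90aa1, which made up the 6 below the unadjusted threshold, are described first within their classes.

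The summed level of all members was nearly the same at both ages, 17121 to 18779 CPM in the old libraries against 16832 to 19369 CPM in young, a ratio of means of 0.998. The ratio was 1.01 for cytosolic, 0.997 for ER, 0.993 for mitochondrial and 0.86 for other members, the last with 899 to 1122 CPM in old against 1079.6 to 1425 CPM in young. Such sums are dominated by the most abundant members. Of the tested members 40 had a positive and 43 a negative log2 fold change (old over young), with a median of -0.04, beside -0.03 over all 11506 genes. In 8 members all old libraries lay above all young ones, and in 5 all lay below, together 15.7% of those tested, against 12.7% of all tested genes (7.55% above and 5.18% below). These shares were close to the background. At a mean level of 200 CPM or more, where counting error matters least, the 27 members had a median absolute log2 fold change of 0.22, and all 1162 genes at that level 0.33. The median SD within a group, on log2(CPM + 1), was 0.25 for these members and 0.34 for all genes at that level.

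**Figure D1:**
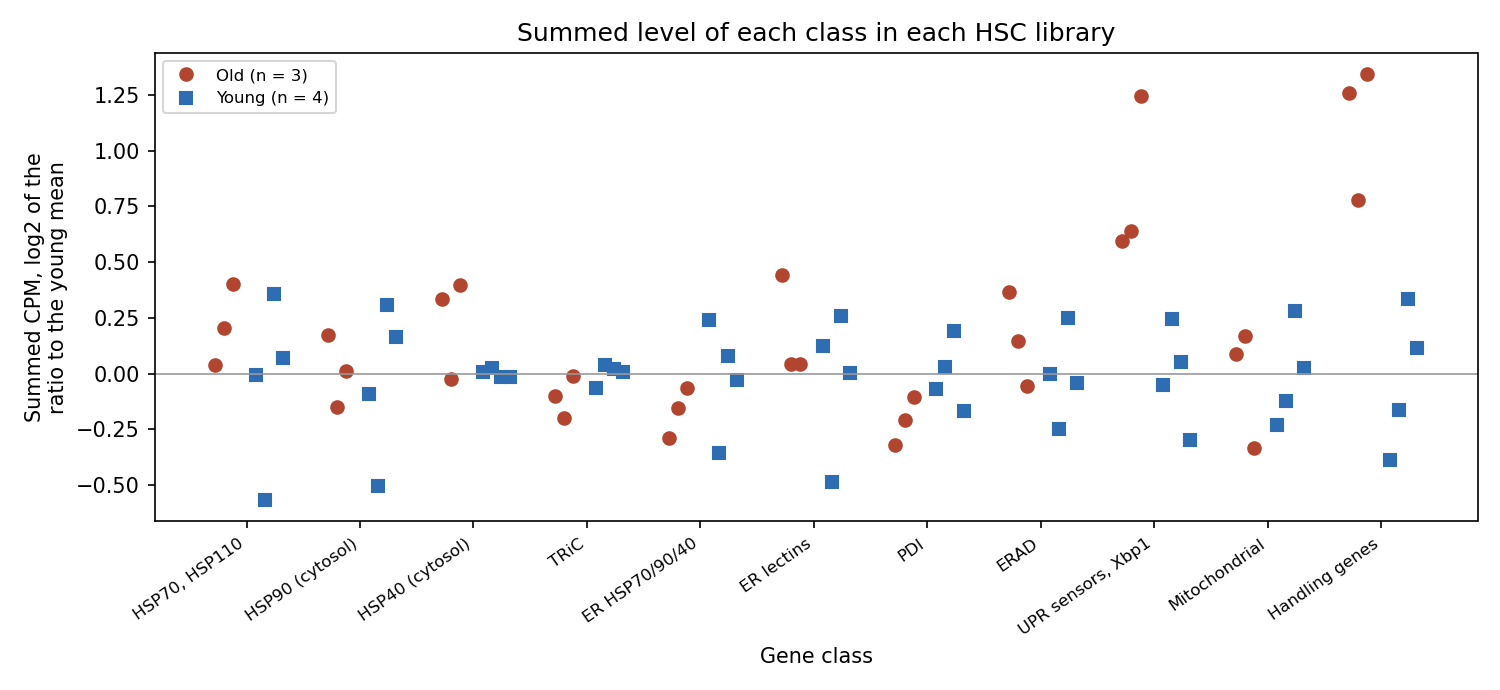
Summed CPM of each gene class in each library, as log2 of the ratio to the young mean (y axis), for old (circles, n = 3) and young (squares, n = 4) HSC libraries. The chaperone classes plotted here, which leave out the small heat shock genes, overlap between the ages, while the UPR sensor class (616 to 967 CPM in old, 331 to 483 CPM in young, nearly all of it Xbp1) and the genes known to respond to cell handling lie higher in all old libraries.

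Promoters of these genes carry known stress elements. They are shown because ATF6 and XBP1 are known to act through the ER stress element and HSF1 through the heat shock element. The windows are RefSeq sequences of build GRCm38.p6, read on the gene's strand over the 250 bases before the start site. Capitals mark the ER stress element, CCAAT and CCACG with 9 free bases between them, read on either strand, in Hspa5, Hsp90b1 and Calr. In Dnajb9 they mark a CCAAT box, and in Hspe1 2 overlapping heat shock elements, each of 3 alternating GAA and TTC units 2 bases apart.
Hspa5 (chr2:34771840-34772089, plus strand): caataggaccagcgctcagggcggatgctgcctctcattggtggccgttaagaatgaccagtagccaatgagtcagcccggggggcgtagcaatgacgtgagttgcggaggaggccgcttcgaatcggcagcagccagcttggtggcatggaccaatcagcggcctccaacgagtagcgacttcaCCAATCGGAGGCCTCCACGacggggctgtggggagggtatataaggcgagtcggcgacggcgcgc
Hsp90b1 (chr10:86705445-86705694, minus strand): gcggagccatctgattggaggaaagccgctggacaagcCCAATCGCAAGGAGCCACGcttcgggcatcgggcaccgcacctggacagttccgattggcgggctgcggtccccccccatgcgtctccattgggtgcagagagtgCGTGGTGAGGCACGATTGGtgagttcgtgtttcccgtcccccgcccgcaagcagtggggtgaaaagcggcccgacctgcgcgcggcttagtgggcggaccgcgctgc
Calr (chr8:84846932-84847181, minus strand): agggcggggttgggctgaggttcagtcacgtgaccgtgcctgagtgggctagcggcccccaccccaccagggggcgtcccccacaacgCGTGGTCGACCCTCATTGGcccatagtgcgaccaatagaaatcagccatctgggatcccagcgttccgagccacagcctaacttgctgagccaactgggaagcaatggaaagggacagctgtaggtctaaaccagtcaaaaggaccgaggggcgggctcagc
Dnajb9 (chr12:44210069-44210318, minus strand): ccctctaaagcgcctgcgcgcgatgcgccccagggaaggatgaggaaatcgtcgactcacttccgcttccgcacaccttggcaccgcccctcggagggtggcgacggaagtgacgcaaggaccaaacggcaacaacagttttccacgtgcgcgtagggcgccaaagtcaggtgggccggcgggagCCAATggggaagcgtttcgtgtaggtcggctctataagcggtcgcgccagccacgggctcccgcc
Hspe1 (chr1:55087898-55088147, plus strand): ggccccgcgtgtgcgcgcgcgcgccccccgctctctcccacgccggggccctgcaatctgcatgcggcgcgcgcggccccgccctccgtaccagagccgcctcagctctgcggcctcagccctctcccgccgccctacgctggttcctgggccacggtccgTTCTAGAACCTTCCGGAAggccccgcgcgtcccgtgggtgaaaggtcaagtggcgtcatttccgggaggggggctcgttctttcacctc

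A promoter was found for 82 of the 101 members, and each of these was searched from 250 bases before to 50 bases after the start. Members without a promoter, among them Hspa8, Hsp90aa1, Hsp90ab1, Hsf1, Hspa9, Atf6, Manf and Hyou1, were not searched. For them the lack of a listed match says nothing. The ER stress element was in 8 of 25 ER members (32%) and in 0 of 36 cytosolic members, against 37 of 27025 genes in the promoter table (0.137%). It begins 65 bases before the start of Hspa5, 162 bases before that of Calr, and 212 and 107 bases before that of Hsp90b1. The other carriers were Dnajc3, Canx, Pdia6, Syvn1 and Creld2. The 3-unit heat shock element was in Hsph1, Dnajb6, Hspd1 and Hspe1, and in 179 of all genes (0.662%). Hspd1 and Hspe1 stand head to head, and the window of 1 of the 2 Hspd1 starts in the table shares 285 bases with that of Hspe1, the other 4 bases. A pair of adjoining heat shock units was in 15 of 36 cytosolic members (41.7%) and in 17% of all genes, and a CCAAT box, which the ER stress element contains, in 41.1% of all genes. A match is a description of the letters, not a bound site.

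In the ER, the gene with the smallest p was Dnajb9, which encodes ERdj4, a J protein that works with the HSP70 BiP, is induced through spliced XBP1 and restrains IRE1. Dnajb9 had 164, 189 and 227 CPM in old HSCs, against 92.8, 97.7, 80.6 and 105 CPM in young HSCs. Every old library was above every young one. The means were 194 ± 31.8 CPM in old libraries and 94.0 ± 10.2 CPM in young ones (SD), a 2.06-fold difference with a log2 fold change of 1.04 ± 0.23 (SE, 95% interval 0.52 to 1.57). Its adjusted p was 0.15 by edgeR and 0.00715 by DESeq2, and over 18 alternatives the adjusted p ran from 0.00715 to 0.709.

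Xbp1, the transcription factor that IRE1 activates by splicing, had 599.9, 621 and 947 CPM in old HSCs, against 393, 482, 394 and 322 CPM in young HSCs. Old 3 was the highest, and the groups did not overlap. The log2 fold change was 0.86 ± 0.23 (SE, interval 0.34 to 1.39), with an adjusted p of 0.207 by edgeR and 0.0168 by DESeq2, and a range of 0.0168 to 0.818 over the alternatives. The sensor genes themselves were scarce. Atf6 had 14.7, 9.84 and 19.9 CPM in the old libraries against 0, 0.868, 26.4 and 8.84 CPM in young, and Ern1, which encodes IRE1, stayed at or below 4.12 CPM in every library. Of 5 plasma cell markers in the table, Mzb1, Prdm1 and Irf4 were at 0 in all libraries, and all 5 summed to 0 to 7.53 CPM in old and 0 to 8.96 CPM in young. Among them Igj was at 4.99, 0 and 7.53 CPM in old and at 0 in young, with its highest value in Old 3, and Sdc1 was at 0 in old and at 0 to 8.96 CPM in young. Of 8 granulocyte and precursor markers, which summed to 546 to 793 CPM in the old libraries against 112 to 231 CPM in young, Prtn3 held nearly all. Of the 3 tested, Prtn3 had a positive log2 fold change (2.10), and S100a8 (-2.44) and Ngp (-0.34) had negative ones with intervals that span 0. Mpo was at 0 in old and at 24.6, 7.9, 0 and 0 CPM in young. Elane was at 9.33, 0 and 0 CPM in old and at 0, 0, 7.01 and 0 CPM in young. Ctsg and Ltf were at 0. The part of plasma cells or granulocytes in the Xbp1 difference was not tested.

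Other ER chaperones that the UPR is known to raise had log2 fold changes on both sides of 0. Hspa5, which encodes BiP, the central ER HSP70, had 608, 756 and 791 CPM in old HSCs, against 1271, 691, 1134 and 797 CPM in young HSCs. Young 1 and Young 3 were high, and Young 2 lay within the old range. Its log2 fold change was -0.44 ± 0.25 (SE, interval -1.01 to 0.13, adjusted p by edgeR 0.717). Hsp90b1, the ER HSP90 known as GRP94, had 374, 341 and 305 CPM in the old libraries against 425, 279.9, 433 and 415 CPM in young, with a log2 fold change of -0.19 (interval -0.68 to 0.30). Dnajb11, the BiP partner ERdj3, had 91.5, 95.4 and 69.6 CPM in the old libraries against 133, 109, 97.1 and 134 CPM in young, all old libraries below all young ones (log2 fold change -0.47, interval -1.08 to 0.14, adjusted p by edgeR 0.712). Dnajc3, which encodes the BiP partner p58IPK, had a log2 fold change of 0.27 (interval -0.23 to 0.76).

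**Figure D2:**
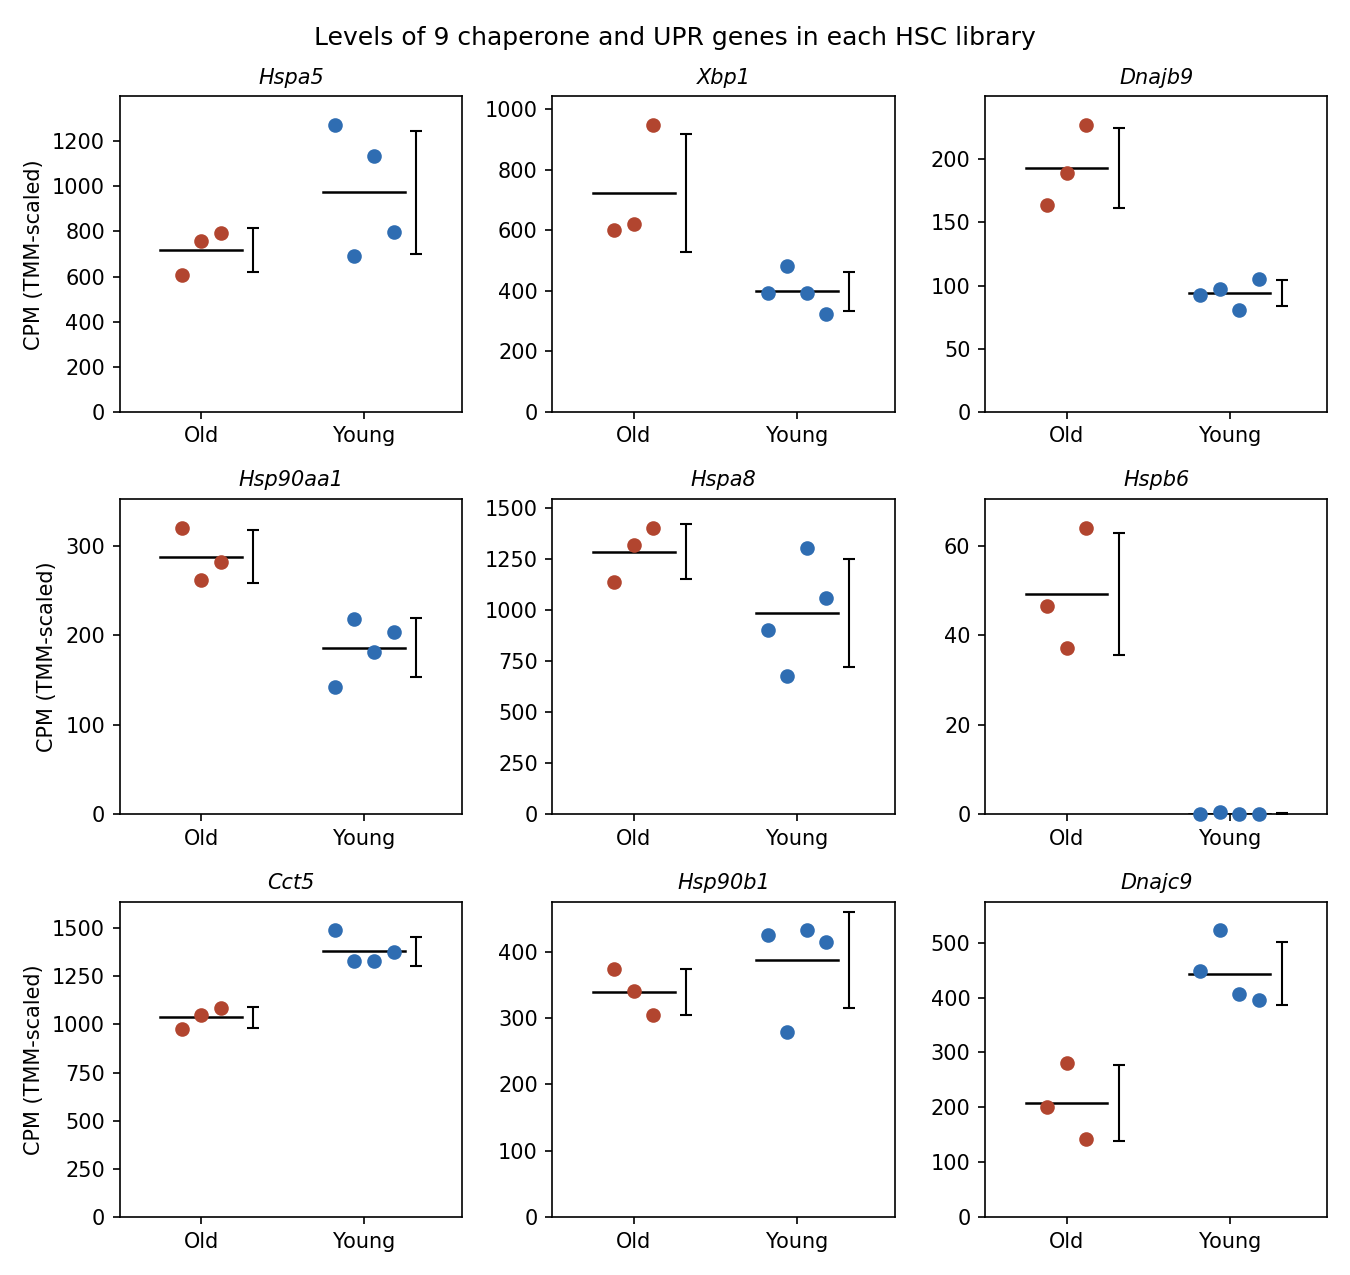
TMM-scaled CPM (y axis, from 0) of 9 genes in each old (left, n = 3) and young (right, n = 4) HSC library; points are libraries, horizontal lines means and bars SD. Old and young libraries do not overlap for Xbp1, Dnajb9, Hsp90aa1, Hspb6, Cct5 and Dnajc9, and they overlap for Hspa5, Hspa8 and Hsp90b1.

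Read by promoter, the 8 ER members with an ER stress element, all of them tested, had log2 fold changes from -1.04 (Syvn1) to 0.48 (Calr), 2 positive and 6 negative, with a median of -0.15. The 17 tested ER members with a promoter and no match had a median of -0.05, with 8 positive and 9 negative. None of either group passed the edgeR test. The windows of Dnajb9 and Xbp1 held no match, which says only that these letters are not in this stretch.

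Calr and Canx encode calreticulin and calnexin, the lectins that hold glycoproteins until they are folded. Calr had 450.1, 338 and 359.9 CPM in old HSCs, against 275, 200, 340.5 and 279.5 CPM in young HSCs. Young 3 came within the old range by a small margin, and the log2 fold change was 0.48 ± 0.23 (SE, interval -0.04 to 1, adjusted p by edgeR 0.598). Canx differed less, with 328 ± 61.1 CPM in old libraries and 349.8 ± 75.2 CPM in young ones (SD). Protein disulfide isomerases form and shuffle disulfide bonds, and the name rule covers only Pdia3 to Pdia6. These 4 had negative log2 fold changes, from -0.08 (Pdia3, the partner of both lectins) to -1.31 (Pdia5), all with intervals that span 0. Pdia5 had 10.1, 22.3 and 19.7 CPM in the old libraries against 34.5, 40.4, 35.9 and 61.1 CPM in young, all old libraries below all young ones, with an adjusted p by edgeR of 0.57. Pdia6 (interval -0.75 to 0.23) and Pdia4 (interval -1.66 to 0.48) overlapped between the ages.

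Of the ERAD genes, Sel1l, the adaptor of the ubiquitin ligase HRD1, had 71.2, 59.0 and 64.3 CPM in old HSCs, against 47.4, 37.3, 50.5 and 24.6 CPM in young HSCs. The groups did not overlap, and the log2 fold change was 0.70 ± 0.42 (SE, interval -0.24 to 1.64, adjusted p by edgeR 0.731). Syvn1, which encodes HRD1 itself, had 17.4, 32.4 and 0.845 CPM in the old libraries against 24.0, 23.1, 55.6 and 35.8 CPM in young, with overlap. Its log2 fold change was -1.04 (interval -3.34 to 1.27, adjusted p by edgeR 0.915). The partners differed in sign, but both intervals spanned 0. Herpud1, a scaffold of that ligase, averaged 363 ± 41.8 CPM in old libraries and 329 ± 43.2 CPM in young ones, and Edem1, a lectin that marks glycoproteins for disposal, 59.7 ± 23.2 CPM in old libraries and 47.0 ± 10.4 CPM in young ones (SD). Further genes known to be raised by the UPR had intervals that spanned 0, namely Manf (log2 fold change 0.04, interval -0.85 to 0.92), Creld2 (-0.11, interval -0.73 to 0.51) and Sdf2l1, a partner of ERdj3 (-0.48, interval -1.63 to 0.67). Hyou1, the ER HSP110 and exchange factor of BiP, had 45 counts in Old 2, 135 in Young 3, 2 in Young 4 and 0 in the other libraries, too few to test.

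In the cytosol, the small heat shock protein gene Hspb6 had by far the largest fold difference among members. It encodes HSP20, which holds unfolded proteins without using ATP. Hspb6 had 46.5, 37.3 and 64.1 CPM in old HSCs, against 0, 0.548, 0 and 0 CPM in young HSCs. In counts these were 1231, 1204 and 1669 in old, against 12 in Young 2 and 0 in the other young libraries, so the gene was detected in every old library and in 1 young library. The log2 fold change over all 7 libraries was 8.48 ± 1.88 (SE, interval 4.24 to 12.72), a value that depends on the prior count of the fit. Its adjusted p was 0.145 by edgeR (unadjusted 0.00136), 4.24e-06 by DESeq2 and 0.0331 by limma-voom, with a range of 4.24e-06 to 0.665 over its alternatives. Leaving out Young 2, the only young library with counts, gave an adjusted p of 0.042 by edgeR. That fit removes all young counts of the gene, so its smaller p is no added support. The gene entered the test only through its old libraries.

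Other small heat shock genes were low. With Hspb6, which held most of the old level, the class summed to 56.7 to 89.4 CPM in the old libraries against 0 to 5.47 CPM in young, without overlap. Hspb1, which encodes HSP27, had 4.76, 1.61 and 17.7 CPM in the old libraries against 0, 1.51, 0 and 0.836 CPM in young, without overlap (interval -1.20 to 8.73, adjusted p by edgeR 0.72). The gap was narrow, with 52 counts in Old 2 against 33 in Young 2. Hspb8, a partner of the co-chaperone BAG3, had 4.27, 29.5 and 5.15 CPM in the old libraries against 0, 0, 5.24 and 4.63 CPM in young. Like Hspb6, Hspb1 and Hspb8 entered the test only through their old libraries. Hspb2 was seen in 2 old libraries at up to 2.34 CPM, and Hspb9 in Young 2 at 1.28 CPM.

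The 2 cytosolic HSP90 genes, whose products mature kinases and receptors, are given side by side. Hsp90aa1, the inducible form, had 320.5, 262 and 282 CPM in old HSCs, against 142, 218, 181 and 204 CPM in young HSCs. No young library reached the lowest old one, and the log2 fold change was 0.63 ± 0.22 (SE, interval 0.13 to 1.13), with an adjusted p by edgeR of 0.356. Hsp90ab1, the constitutive form, had 1117, 889 and 1004 CPM in the old libraries against 1056, 680.4, 1397 and 1224 CPM in young (log2 fold change -0.12, interval -0.70 to 0.46). The difference between the 2 genes' fold changes was not tested.

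Among cytosolic HSP70 genes, Hspa8, the constitutive HSC70, had 1137, 1319 and 1403 CPM in old HSCs, against 902, 678, 1303 and 1058 CPM in young HSCs. Young 3 lay among the old libraries, and the interval of the log2 fold change was -0.16 to 0.93. Hspa2, known best from the testis, was low at 16.6, 12.4 and 12.2 CPM in the old libraries against 0, 5.39, 7.44 and 2.96 CPM in young, and the groups did not overlap (adjusted p by edgeR 0.899). The exchange factors Hspa4 (log2 fold change 0.14, interval -0.75 to 1.03), Hspa4l (-1.21, interval -3.21 to 0.78) and Hsph1 (-0.14, interval -1.67 to 1.39) spanned 0. The stress-inducible HSP70 pair was nearly silent in the table: Hspa1a had 0 counts in every library, and Hspa1b had 18 in Young 3, 22 in Young 4 and 0 elsewhere. Their coding sequences are 99.4% identical, with an unbroken run of 638 equal bases, so reads from them may not have been assigned to either, and the 0 counts do not show that these genes were off. The related Hspa1l had 786 counts in Young 1, 41 in Young 2, 1 in Old 1 and 0 elsewhere, and 71.9% of its exonic bases are shared with the predicted gene Gm10501 in the GENCODE annotation of GRCm38.

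J proteins deliver clients to HSP70. Of the 10 tested cytosolic members, 8 had a positive log2 fold change, with a median of 0.28, and none passed. Dnajb1, the classical heat-inducible HSP40, had 276, 243 and 319 CPM in old HSCs, against 192, 169.9, 309 and 250.3 CPM in young HSCs, an overlap of the groups (interval -0.30 to 0.85). Dnaja1 averaged 379.6 ± 60.4 CPM in old libraries and 306 ± 33.0 CPM in young ones, and Dnaja2 409.7 ± 28.5 CPM in old libraries and 337 ± 63.7 CPM in young ones (SD). Dnajb4 had 131, 55.9 and 110.1 CPM in the old libraries against 13.0, 58.8, 60.5 and 45.0 CPM in young, where Old 2 fell among the young libraries (log2 fold change 1.16, interval -0.07 to 2.38, adjusted p by edgeR 0.586). Hsf1 averaged 165 ± 69.8 CPM in old libraries and 193 ± 44.6 CPM in young ones (SD, log2 fold change -0.22, interval -0.98 to 0.54), and Hsf2 had 12.1 CPM or less in every library. The median log2 fold change of the 31 tested cytosolic members was 0.18, and in the same fit it was 0.00 over the 21 with a mean of at least 50 CPM. A new fit without the lower genes, which also rescales the libraries, gave -0.07.

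Genes that respond to the handling of cells were summed for the same libraries. Of 19 such genes, 17 were tested, and Zfp36 and Fos passed (adjusted p by edgeR 0.0457 and 0.0483), both higher in old. The list summed to 6622 to 9804 CPM in the old libraries against 2954 to 4877 CPM in young, a ratio of means of 2.21, and its median log2 fold change was 1.13. HSP70, HSP40 and HSP90 genes can respond to handling too, and the part of handling in the chaperone values was not tested.

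The TRiC chaperonin, a ring of 8 kinds of subunit that folds actin and tubulin, varied little. Its 8 tested subunit genes summed with the scarce Cct6b to 5239 to 5976 CPM in the old libraries against 5754 to 6177 CPM in young. Their log2 fold changes ran from -0.41 to 0.27, and every 95% interval lay within -0.80 to 0.81. The median absolute log2 fold change was 0.18, beside a median SD within a group of 0.19. Cct5 had the smallest p among them, with 978, 1049 and 1083 CPM in old HSCs, against 1489.6, 1329, 1329 and 1375 CPM in young HSCs. All old libraries were below all young ones, while the other 7 subunits overlapped. Its log2 fold change was -0.41 ± 0.17 (SE, interval -0.80 to -0.03), with an adjusted p of 0.471 by edgeR and 0.0134 by DESeq2 and a range of 0.0134 to 0.9 over the alternatives.

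**Figure D3:**
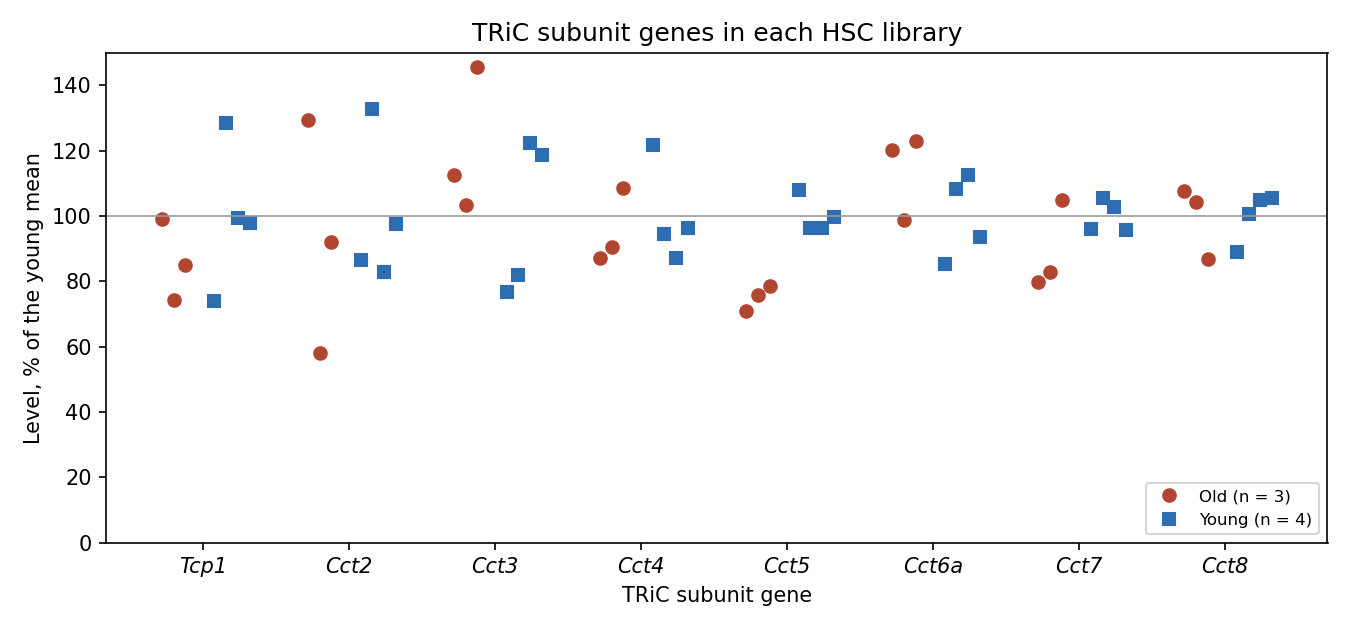
Level of the 8 TRiC subunit genes in each old (circles, n = 3) and young (squares, n = 4) HSC library, as a percentage of the young mean (y axis, from 0). Old and young libraries overlap for every subunit except Cct5, where all 3 old libraries lie below all 4 young ones.

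No mitochondrial member had groups that stood apart. Hspd1 and Hspe1 encode HSP60 and HSP10, the mitochondrial chaperonin and its lid. Hspd1 had 204, 179 and 127 CPM in old HSCs, against 116, 155, 239 and 193 CPM in young HSCs (with a log2 fold change of -0.05, interval -0.72 to 0.63). Hspe1 had 82.1, 66.9 and 33.6 CPM in the old libraries against 90.9, 85.8, 38.3 and 54.8 CPM in young (-0.15, interval -1.18 to 0.89). Hspa9, the HSP70 of the matrix, averaged 220.2 ± 43.6 CPM in old libraries and 227 ± 91.4 CPM in young ones (SD). In each of these genes the groups overlapped, and the signs of all 3 turned under some alternatives. The 8 mitochondrial members had a median log2 fold change of -0.04, between -0.77 for Dnajc11, which shapes the inner membrane, and 0.58 for Dnajc30.

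Among the other J proteins, Dnajc9 had the smallest p. It is a nuclear co-chaperone of histones H3 and H4. Dnajc9 had 201, 281 and 142 CPM in old HSCs, against 449, 523, 407 and 395 CPM in young HSCs. The highest old library was below the lowest young one. The log2 fold change was -1.09 ± 0.26 (SE, interval -1.69 to -0.50), with an adjusted p of 0.165 by edgeR over all tested genes, 0.0388 by edgeR over the 4508 genes whose mean reached 50 CPM (130 called, 2.88%, of which 1.75% higher in old and 1.13% lower) and 0.00278 by DESeq2. Over the alternatives its adjusted p ran from 0.00278 to 0.557. Cd34 and Flt3, markers of multipotent progenitors, summed to 85.2 to 135 CPM in the old libraries against 244 to 405 CPM in young, and their part in the Dnajc9 difference was not tested. Dnajc6, which encodes auxilin, the co-chaperone that uncoats clathrin vesicles, had 3.89, 7.74 and 0 CPM in the old libraries against 30.1, 13.3, 9.46 and 20 CPM in young, without overlap (adjusted p by edgeR 0.842). Dnajc12 had 35.1, 31.4 and 36.4 CPM in the old libraries against 0, 29.4, 15.5 and 28.8 CPM in young, also without overlap (interval -2.25 to 4.05, adjusted p by edgeR 0.969). The remaining 12 tested members of this group overlapped between the ages.

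**Figure D4:**
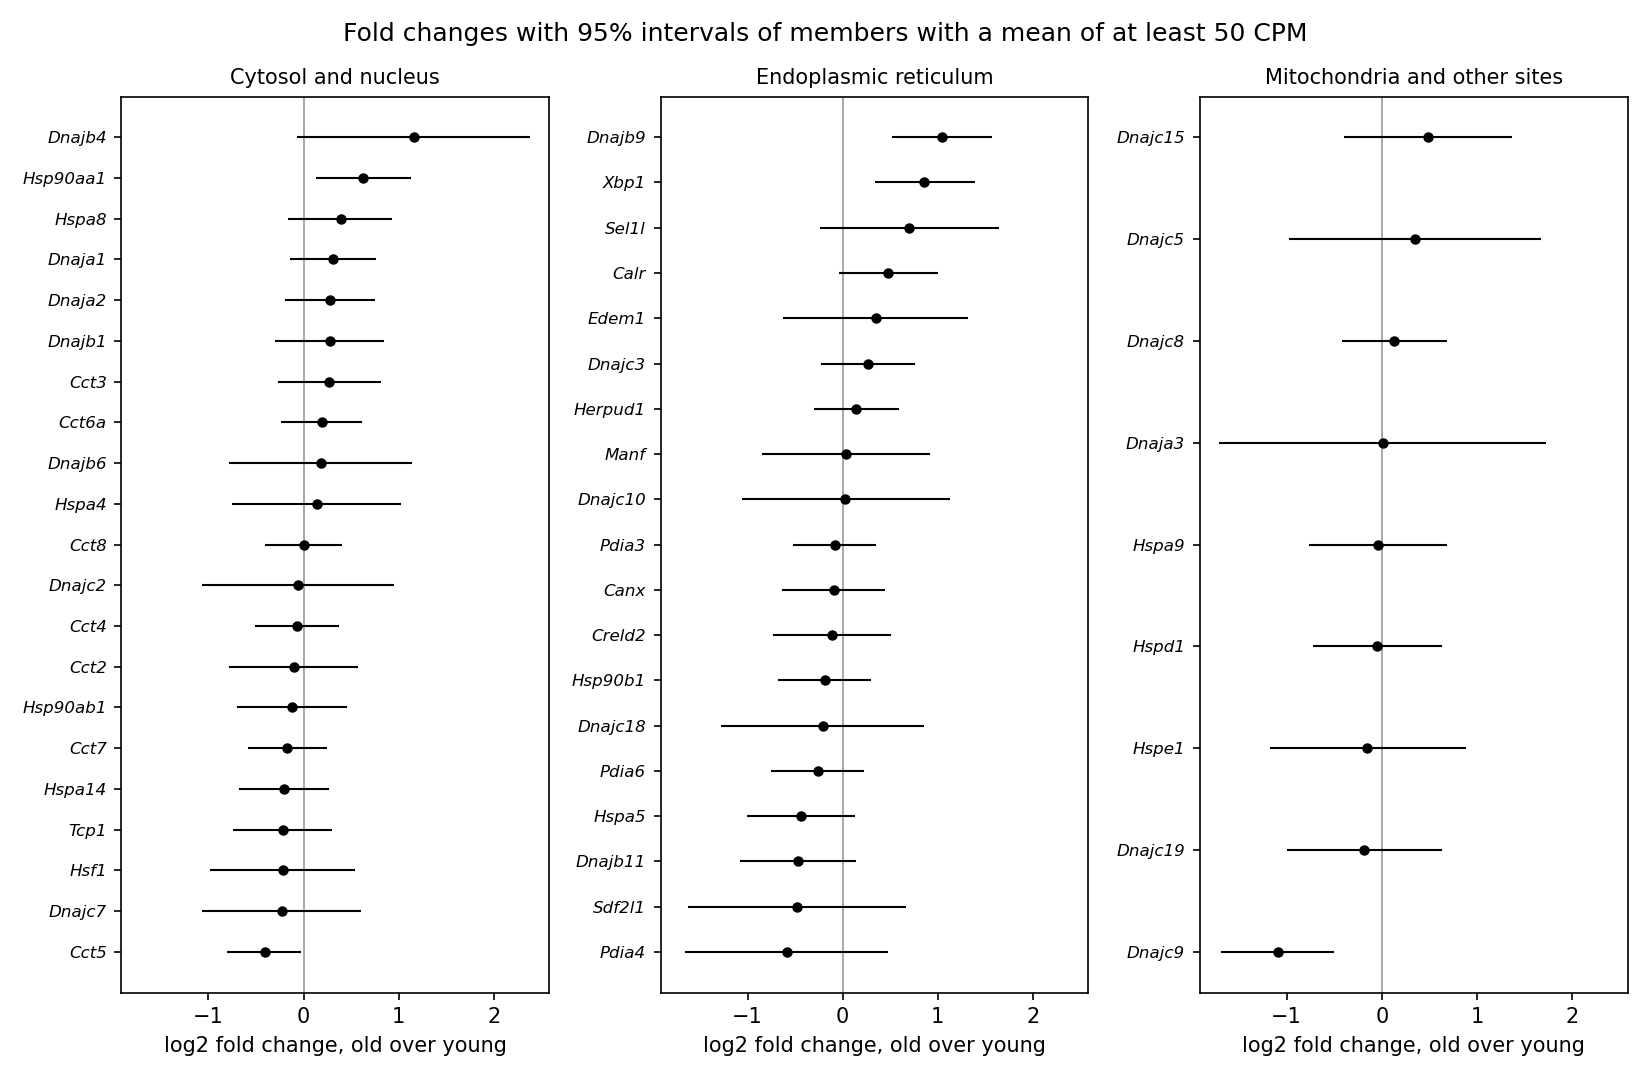
Log2 fold changes, old over young (x axis), with 95% intervals for the 49 members whose mean reached 50 CPM, in 3 panels by site of the protein. The interval spans 0 for 44 of them and lies to 1 side for Hsp90aa1, Cct5, Dnajb9, Xbp1 and Dnajc9; 42 points lie within 0.5 of 0.

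Further genes of the same pathways, taken from lists that the name rule does not cover, also held none past the edgeR threshold. Of 26 tested cytosolic co-chaperones 13 had positive and 13 negative log2 fold changes (median -0.01). Pfdn5, a prefoldin subunit that hands clients to TRiC, had 156, 150.4 and 98.0 CPM in old HSCs, against 58.8, 71.7, 40.3 and 61.9 CPM in young HSCs, without overlap (log2 fold change 1.21, adjusted p 0.192 by edgeR and 0.0375 by DESeq2). Fkbp4, an HSP90 co-chaperone, had 142, 181 and 225 CPM in the old libraries against 283, 245, 435 and 385 CPM in young (-0.88, adjusted p by edgeR 0.291). In the PERK branch, 5 of 8 tested genes were positive (median 0.31). Its Atf4, Ddit3 (CHOP) and Asns had log2 fold changes of 0.47, 1.34 and 0.72, with overlapping groups and adjusted p by edgeR of 0.725, 0.648 and 0.598. The negative ones were Eif2ak3, the gene of PERK itself (-1.74, interval -7.13 to 3.65), Ppp1r15b (-0.56) and Eif2s1 (-0.27), also with overlapping groups. The 5 partners of ATF6 and IRE1 had a median of -0.12, led by Mbtps1, the protease that cuts ATF6, at -1.63 (adjusted p by edgeR 0.487). The medians were -0.10 for 24 ER folding and transport genes, 0.03 for 13 further ERAD genes and 0.26 for 9 mitochondrial partners.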

How the data were processed

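RNA of flow-sorted cells was turned into cDNA by Smart-seq+ and into libraries by Nextera XT, a kit without strand information, per the labels' protocols. Trimmomatic, FastQC, STAR, featureCounts and build mm9 are named in the submitters' processing notes. Versions, annotation and strand counting were not given in the sources used here. What the authors deposited are raw counts per gene symbol, not scaled by the authors as far as the values show (whole numbers, unequal totals). Amplification copies are included, and no molecular identifiers are stated. Hspa8, Hsp90ab1, Hspe1 and other members have processed pseudogenes, so their counts may be incomplete. In the GENCODE annotation of GRCm38, other genes overlap 44.6% of the exonic bases of Dnaja4, 21.6% of Hsp90b1, 20.6% of Tcp1 and 18.4% of Cct6a, and reads there cannot be told apart without strand.

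Libraries were grouped by their labels. In R 4.3.3, edgeR 4.0.16 kept 11506 genes with filterByExpr (minimum count 10, minimum total 15), scaled them with TMM, and compared old with young by its quasi-likelihood F test (2-sided, Benjamini-Hochberg over all tested genes, group as the only term). The SE of a log2 fold change is its size over the square root of F, and intervals are 95% from a t distribution with edgeR's degrees of freedom. The common biological coefficient of variation was 106%. Levels are CPM, as mean ± SD over 3 old and 4 young libraries. On simulated counts with known changes the test missed most of the changed genes, so a gene that did not pass is not shown to be equal at both ages. Replicate pairs differed by far more than counting noise (chi-square per gene of at least 184), so none was counted as a duplicate.

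Members, classes and lists were chosen with earlier results of these data known. Named genes are up to 3 tested members of each class with the smallest p and a list of central chaperone and UPR genes, 49 in all; others were named after their values were seen, because their groups did not overlap or to complete a class. Promoters come from RefSeq (GRCm38.p6) by gene symbol. Alternatives were DESeq2 1.42.0, limma-voom (limma 3.58.1), robust dispersions, other scalings, filters and threshold, a block for the replicate number, and each library left out in turn.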

Additional observations from a re-analysis of the deposited data

Results flagged for a closer look

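Of 49 named members, 3 had a young library far from the other 3 young libraries, relative to the range of the group. Chance gives such a gap in about 1 in 20 groups of normally distributed values, and for Hspb6 the 0 in the other libraries fixes it. Young 2 had 0.548 CPM of Hspb6, where the other young libraries had 0. Young 2 also had the lowest Hsp90b1, 279.9 CPM, where the others had 415 to 433 CPM. Young 3 had 2.38 CPM of Ern1, where the others had 0 to 0.32 CPM. Groups of 3 old libraries were not examined in this way.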

How the results depend on the processing

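The count of genes past the threshold, 29 of 11506, was 130 with a mean of at least 50 CPM, 16 with library size alone, 431 with DESeq2, 50 with limma-voom, 49 at a threshold of 0.10, and 2 to 18 when 1 library was left out (2 without Old 1 or Old 3), with every one of the 7 libraries moving it. With both Young 1 and Young 2 left out, an alternative chosen after seeing the data, it was 7. Members higher in old numbered 3 with DESeq2, 1 with limma-voom and 0 to 1 with 1 library left out. The 1 was Hspb6 without Young 2, the library that held all young counts of the gene. Members lower in old numbered 2 with DESeq2 and 1 with a mean of at least 50 CPM. That filter, which also rescales the libraries, gave a median log2 fold change of cytosolic members of -0.07 over 21 genes, whose median was 0.00 in the fit over all tested genes, beside 0.18 over 31.

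The replicate numbers of the labels showed no sign of pairing (correlations of deviations 0.02, -0.10 and 0.02), which does not settle whether samples were paired. With the number as a block, 0 genes passed, and the log2 fold change became 0.10 for Hspa9, 0.04 for Hspd1, 0.52 for Hsph1 and -0.07 for Manf, each with its sign turned. Of 47 tested named members, 33 kept their sign under every alternative run for them, 18 for 22 of them and 17 for 11. The threshold of 0.10, counted among these alternatives, uses the main fit and cannot turn a sign. Signs also turned for Hspa9 with limma-voom (0.01), for Manf among genes reaching 50 CPM (-0.01) and with library size alone (-0.04), and with both Young 1 and Young 2 left out for Atf6 (-0.25), Cct3 (0.00), Creld2 (0.11), Dnajb1 (-0.01) and Hspe1 (0.39). With 1 library left out, log2 fold changes ran from -0.25 to 0.01 for Canx, -0.24 to 0.06 for Creld2, -0.45 to 1.81 for Ern1, -0.55 to 0.07 for Hsf1, -0.39 to 1.14 for Hsf2, -0.29 to 0.02 for Hsp90ab1, -0.24 to 0.24 for Hspa9, -0.20 to 0.14 for Hspd1, -0.43 to 0.14 for Hspe1, -0.47 to 0.27 for Hsph1 and -0.16 to 0.26 for Manf. The cause was not tested. Library size alone set the median of all tested genes to -0.12, beside -0.03 with TMM. For genes under a few CPM the intervals span several log2 units.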
